A study of Canis lupus familiaris with 15 samples.

Results

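Interferon-stimulated genes, together with the sensors and transcription factors that govern them, were followed across canine osteosarcoma cells by name. A set of 58 genes was looked up by exact gene symbol in the 3 deposited tables of differentially expressed genes. Of these, 40 were listed in at least 1 table. In all, 7698 gene identifiers were listed. The number of genes tested is not known, so no share over all genes can be set beside the 40. The study used the canine osteosarcoma lines D17 and POS and a highly metastatic sub-line of POS named HMPOS. The extravasated groups were sub-lines expanded in culture from tumor cell clusters that had left the vessels of live zebrafish embryos, and the parental groups were lines that had never been placed in zebrafish. The 5 groups were D17 extravasated, D17 parental, HMPOS extravasated, HMPOS parental and POS parental, each with 3 libraries, and the labels name no interferon or other agent for any of them. The zebrafish carried Tg(fli1a:EGFP), which makes vessels fluoresce. The extravasated cells also went through bleaching and enzymatic dissociation of the embryo sections and outgrowth in culture. The article describes 3 biological replicates of the isolated clusters. The labels do not say whether the 3 libraries of a group were separate cultures.

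Interferons are secreted proteins that a cell makes when it senses viral RNA or misplaced DNA. They bind receptors on the same and on neighboring cells, and the JAK kinases there activate STAT factors, which join IRF9 and switch on a large set of antiviral genes. The same set also holds the RNA sensors and IRF factors of the pathway, so that the response feeds back on itself. Osteosarcoma cells, like most cells, can mount this response, and many tumor lines keep part of it on without any virus.

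Each table gave a single FPKM (fragments per kilobase of transcript, adjusted for how many fragments were mapped) for a whole group, so no value per library was analysed here. The spread between the 3 libraries and the sequencing depth are therefore unknown, and no SD, interval or p-value of a difference is given. A gene was listed only where the deposited test called it, so a gene missing from a table may have been unchanged, too low to test or unnamed in the annotation, and its level there is unknown. The 18 genes of the set in no table were STAT2, IRF3, IRF5, IRF7, ZBP1, IFI16, IFIT5, CMPK2, IFITM1, IFITM3, SAMD9, HERC5, USP18, GBP1, GBP2, IFI27, EPSTI1 and SP100. All log2 ratios below were recomputed from the FPKM values as the first group over the second, and a change above 2-fold is the threshold used for counts. The first group of the extravasation tables is named meta and the second norm. POS, which has parental libraries alone, carries the name norm, and norm was taken to mean parental. The article describes these comparisons with the opposite orientation, and the values used here do not settle which is right. It reports the interferon gamma response as lower in extravasated cells of both lines. It also reports more downregulated than upregulated genes in each line. Of the listed genes, 797 were higher and 392 lower in the group named meta for HMPOS, and 2390 higher and 2022 lower for D17. Exchanged group names and a ratio taken the other way round in the article cannot be told apart here. The direction of both extravasation comparisons is therefore uncertain: extravasated stands below for the group named meta and parental for norm, and if the names had been exchanged, every extravasation ratio would change sign and each higher would read lower. The HMPOS group set against POS is also named norm, so it would then be the extravasated one. The RNA came from whole cultures, in which fewer expressing cells and less RNA per cell cannot be told apart.

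In D17, all 37 listed interferon-stimulated genes were higher in the group read as extravasated than in that read as parental. The increase was above 2-fold for 27 of them (73.0%), against 18.3% of the 4412 genes listed in that table, of which 54.2% were higher at any fold. With a pseudocount of 1 FPKM the 27 became 25, and after centring on the median of the listed genes 19. The median log2 ratio was 1.40 for the 37 genes and 0.39 for all listed genes. The ratios ran from 0.40 for IRF1 to 4.64 for XAF1.

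In HMPOS, all 15 listed interferon-stimulated genes were higher in the group read as extravasated, and 7 of them (46.7%) by more than 2-fold. The 7 became 3 with a pseudocount of 1 FPKM and 4 after centring on the median of the listed genes. Of the 1189 genes in that table, 67.0% were higher at any fold and 20.5% by more than 2-fold. The median log2 ratio was 1.00 for the 15 genes and 0.58 for all listed genes, and relative to this second value 11 were higher and 4 lower, the 4 being UBE2L6, PARP9, DTX3L and IFI30. In D17, all 37 remained above the median of the listed genes.

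Between the parental lines the ratios were far larger. Each of the 33 listed interferon-stimulated genes was lower in HMPOS than in POS, 32 of them (97.0%) by more than 2-fold, against 52.3% of 5746 listed genes that were lower at any fold and 19.1% that were lower by more than 2-fold. The median log2 ratio was -4.92 for the 33 genes and -0.31 for all listed genes. Of the 20 genes with the lowest ratios of HMPOS over POS, 9 were interferon-stimulated genes, and MX1 and MX2 had the lowest and second lowest of 5718 ratios. These ranks leave out genes at 0 FPKM in either group. In parental HMPOS, 12 of the 33 genes were below 1 FPKM, where ratios depend on small values. With a pseudocount of 1 FPKM the log2 ratio of MX1 was -8.55, that of ISG15 -7.56 and that of MX2 -5.64. The sum of the FPKM of the 33 genes was 177 in HMPOS and 3537 in POS. A few genes carried much of each sum, with ISG15 and MX1 making up 42.6% in POS and UBE2L6 33.8% in HMPOS. The HMPOS and POS comparison shares its HMPOS parental libraries with the HMPOS extravasation comparison, so these are not independent of each other.

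**Figure D1:**
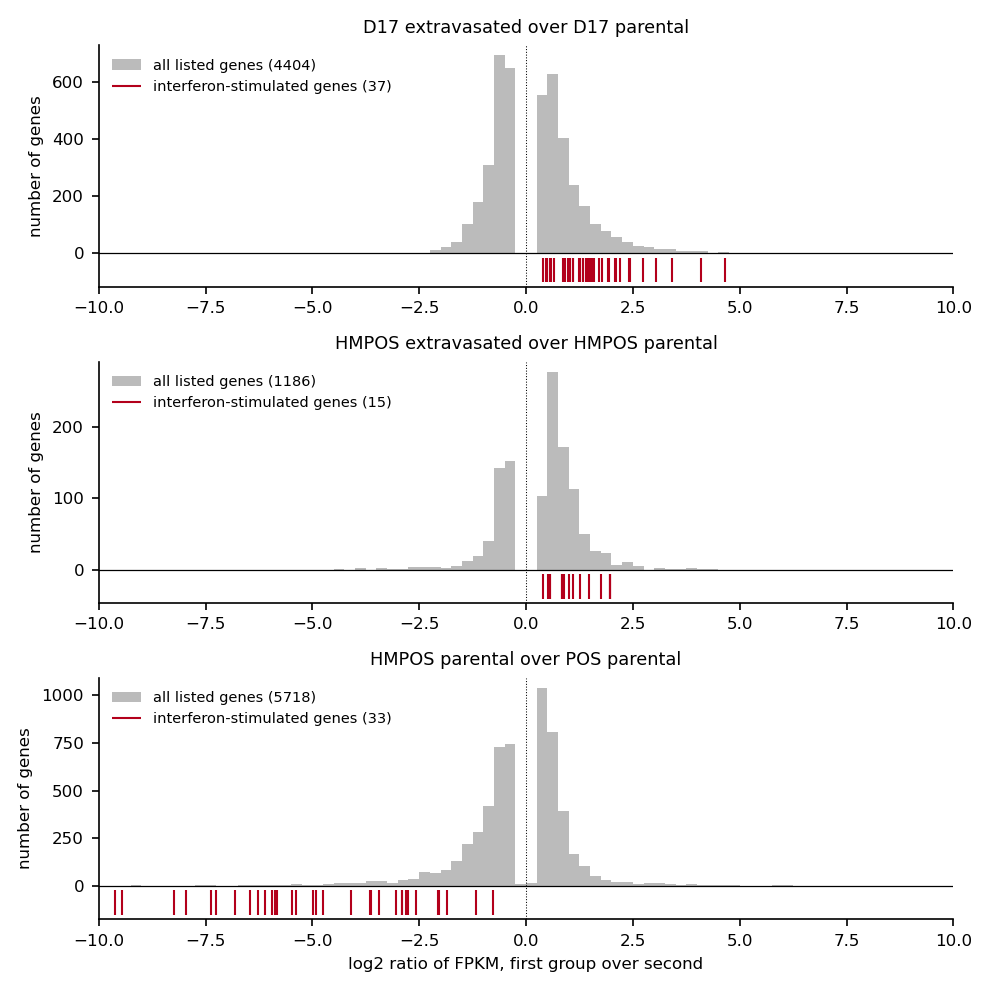
Log2 ratios of FPKM, first group over second, for all listed genes with a value above 0 in both groups (gray histogram, number of genes on the y axis) and for the interferon-stimulated genes (red ticks), in each of the 3 comparisons. All ticks lie to the right of 0 in the extravasation comparisons, as the group names were read, and to the left of 0 for HMPOS parental over POS parental, where they reach -9.61. The gap around 0 reflects that the tables hold called genes alone.

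The antiviral effectors made up the largest class. MX1 and MX2 are dynamin-like GTPases that trap viral particles, and their genes lie side by side on chromosome 31, MX2 from 35860595 to 35884282 and MX1 from 35905234 to 35929863 (CanFam3.1, positions as the tables give them). MX1 was at 542 FPKM after extravasation and 217 FPKM in the parental D17 culture. In HMPOS it was at 2.55 FPKM after extravasation and 0.913 FPKM in the parental state, and in POS at 714 FPKM. MX1 was thus among the most abundant of these genes in D17 and POS and near 1 FPKM in parental HMPOS, a 784-fold difference between the parental lines. The increase with extravasation was 2.50-fold in D17 and 2.79-fold in HMPOS. MX2 was at 49.6 FPKM in extravasated D17, 13.0 FPKM in parental D17, 0.0755 FPKM in parental HMPOS and 52.7 FPKM in POS. MX2 was not listed for extravasated HMPOS, so the pair cannot be compared there.

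The 2'-5'-oligoadenylate synthetases make a short nucleotide chain that activates the ribonuclease RNase L when they bind double-stranded RNA. OAS1, OAS3 and OAS2 lie in a row on chromosome 26 between 10385073 and 10451332, and all were listed in the 3 tables. In D17, OAS1 went from a parental 66.03 FPKM to 141 FPKM, OAS2 from 85.3 to 240.4 FPKM and OAS3 from 14.9 to 43.5 FPKM. In HMPOS, OAS1 went from 3.26 to 6.50 FPKM, OAS2 from 0.977 to 2.35 FPKM and OAS3 from 0.939 to 2.03 FPKM. All were thus close to a doubling or tripling, with log2 ratios of 1.09, 1.50 and 1.54 in D17 and of 1.00, 1.27 and 1.11 in HMPOS, of which that of OAS1 in HMPOS lay just inside 2-fold, at 1.99-fold. In POS the levels were 184 FPKM for OAS1, 86.2 FPKM for OAS2 and 73.0 FPKM for OAS3, which is 56.4-fold, 88.3-fold and 77.8-fold above parental HMPOS. Reads of these related genes can be shared, so the split between them depends on the counting, as it does for the MX, IFIT and GBP genes.

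OASL, a relative without synthetase activity that enhances RNA sensing, lies apart from them on chromosome 26, from 16827059 to 16869102. It had the second highest ratio of the set in D17, at 38.3 FPKM after extravasation and 2.24 FPKM in the parental state, a 17.1-fold difference. For HMPOS against POS, 2 rows carried its symbol and the same span. The row with the identifier also listed for D17 was at 0.722 FPKM in HMPOS against 7.84 FPKM in POS, and the other row at 22.2 and 44.7 FPKM. The direction was the same in both rows, while the size differed, with log2 ratios of -3.44 and -1.01.

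IFIT1, IFIT2 and IFIT3 belong to a family that binds foreign RNA and blocks its translation. They lie together on chromosome 4 between 63037 and 134065. In extravasated and parental D17 cells, IFIT1 was at 23.2 and 3.49 FPKM, IFIT2 at 10.04 and 1.85 FPKM and IFIT3 at 8.69 and 3.47 FPKM. All were above 2-fold, and IFIT1 had the largest ratio of these, with a log2 value of 2.73. IFIT2 alone of them was also listed for the parental lines, at 0.163 FPKM in HMPOS against 27.1 FPKM in POS. RSAD2, which encodes viperin, an enzyme that makes a chain-terminating nucleotide, was at 139.7 and 32.3 FPKM in extravasated and parental D17, at 0.122 FPKM in parental HMPOS and at 13.8 FPKM in POS. Unlike MX1 or OAS1, RSAD2 was thus higher in both D17 groups than in POS.

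BST2, or tetherin, holds budding virus at the cell surface. It was at 119 FPKM after extravasation and 39.8 FPKM in the parental D17 culture, at 4.04 and 2.18 FPKM in HMPOS and at 134 FPKM in POS. In HMPOS its increase of 1.85-fold fell short of 2-fold, as that of OAS1 did, and the other 3 listed effectors passed. SAMD9L, an inhibitor of translation, was at 88.7 and 36.8 FPKM in D17, at 4.68 FPKM in parental HMPOS and at 58.6 FPKM in POS. ISG20, an RNA exonuclease, was listed for D17 alone, at 2.44 FPKM after extravasation and 0.294 FPKM in the parental state, an 8.30-fold difference between low values. Of the 18 effectors looked up, 13 were listed in D17, all above 2-fold. For the parental lines 10 were listed, all more than 4-fold lower in HMPOS in the rows kept. The other row of OASL was not, with a log2 ratio of -1.01.

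**Figure D2:**
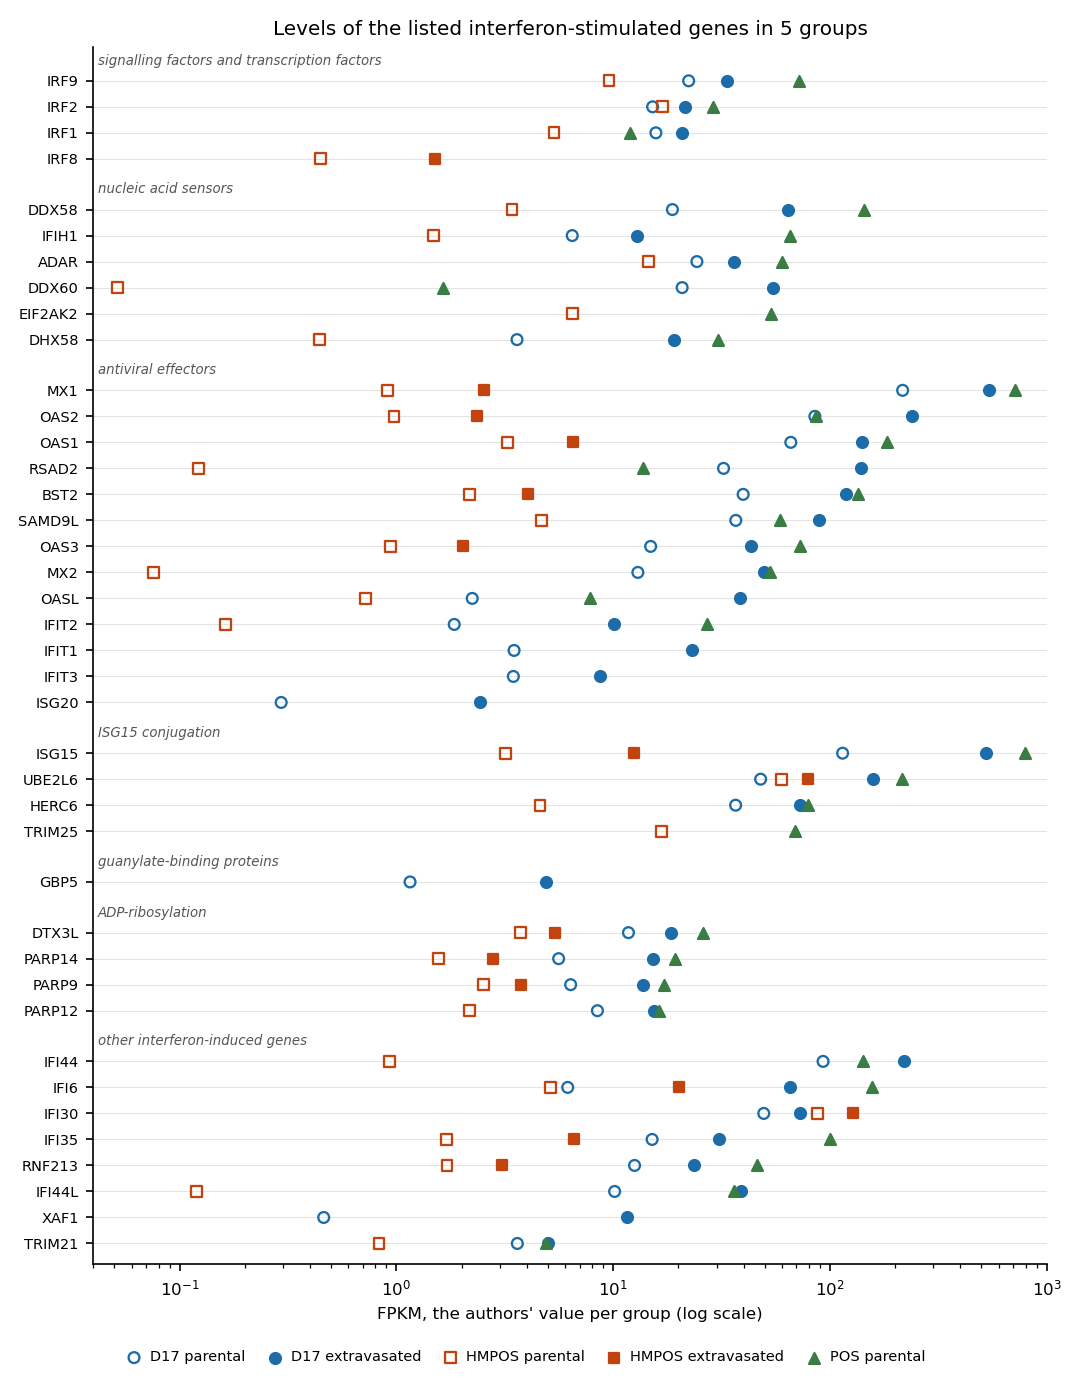
FPKM (log scale) of the 40 listed interferon-stimulated genes, ordered by role, in D17 (blue circles, filled for extravasated), HMPOS (orange squares, filled for extravasated) and POS (green triangles). A missing symbol means that no table listed the gene for that group, and values of D17 come from another table than those of POS, normalized separately. The 5 groups of MX1 run from 0.911 to 714 FPKM, and the open squares of most genes lie farthest to the left.

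ISG15 is a ubiquitin-like protein that is coupled to other proteins, UBE2L6 is the enzyme that hands it on, and HERC6 and TRIM25 are ligases. ISG15 (chromosome 5, 56230817 to 56237586) was at 528 and 115 FPKM in extravasated and parental D17, at 12.5 and 3.20 FPKM in HMPOS and at 791 FPKM in POS. It was the most abundant gene of the set in POS and, after MX1, in D17, and the difference between the parental lines was 247-fold. The increase with extravasation was 4.61-fold in D17 and 3.90-fold in HMPOS.

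UBE2L6 differed from ISG15 in that its level in parental HMPOS was also high. It was at 157 and 47.9 FPKM in extravasated and parental D17, at 79.2 and 60.0 FPKM in HMPOS and at 215 FPKM in POS. UBE2L6 was the only listed gene of the set above 50 FPKM in parental HMPOS in the table with POS, while 19 of the 33 were above that level in POS. HERC6 was at 73.0 and 36.7 FPKM in D17, just under 2-fold, and at 4.60 FPKM in parental HMPOS and 79.0 FPKM in POS. TRIM25, which also activates the RNA sensor RIG-I, was listed for the parental lines alone, at 16.7 FPKM in HMPOS against 69.4 FPKM in POS.

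None of the nucleic acid sensors was listed for extravasated HMPOS. In D17, 5 of 8 were listed, all higher in extravasated cells, and 4 of them above 2-fold. DDX58 encodes RIG-I and IFIH1 encodes MDA5, the receptors for viral RNA in the cytosol, and DHX58 encodes LGP2, which tunes both. DDX58 was at 64.0 and 18.8 FPKM in extravasated and parental D17, at 3.42 FPKM in parental HMPOS and at 143 FPKM in POS. DHX58 was at 19.2 and 3.60 FPKM in D17, at 0.442 FPKM in parental HMPOS and at 30.3 FPKM in POS. IFIH1 was at 13.0 and 6.48 FPKM in D17, which is almost exactly 2-fold, at 1.48 FPKM in HMPOS and at 65.7 FPKM in POS. The 3 receptors were 41.9-fold, 44.3-fold and 68.7-fold lower in parental HMPOS than in POS for DDX58, IFIH1 and DHX58 in turn.

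DDX60, a helicase linked to RIG-I signaling, was lower in POS than in either D17 group, as RSAD2 and IRF1 were. DDX60 was at 54.9 and 20.8 FPKM in extravasated and parental D17, at 0.0516 FPKM in parental HMPOS and at only 1.64 FPKM in POS. EIF2AK2, the kinase PKR that shuts down translation on double-stranded RNA, was listed for the parental lines alone, at 6.49 FPKM in HMPOS against 53.6 FPKM in POS. ADAR edits double-stranded RNA and so keeps the sensors from reading the cell's own RNA as foreign. It was at 36.2 and 24.4 FPKM in D17, at 14.6 FPKM in parental HMPOS and at 60.0 FPKM in POS, and its log2 ratios of 0.57 in D17 and -2.04 for the parental lines were among the smaller of the set.

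The transcription factors had smaller ratios than the effectors in D17 and between the parental lines, with median log2 values of 0.50 and -1.16 over 3 listed factors against 1.58 and -6.37 over 13 and 10 listed effectors. IRF9, the DNA-binding part of the complex with STAT2, was at 33.4 and 22.3 FPKM in extravasated and parental D17, at 9.57 FPKM in parental HMPOS and at 72.0 FPKM in POS. IRF1, an activator, was at 20.8 and 15.8 FPKM in D17, at 5.34 FPKM in HMPOS and at 11.9 FPKM in POS. IRF2, which competes with IRF1 at many sites, was at 21.5 and 15.2 FPKM in D17, at 16.9 FPKM in HMPOS and at 28.8 FPKM in POS. Of these, none passed 2-fold in D17, and IRF9 and IRF1 did between the parental lines. IRF2, with a log2 ratio of -0.77, was the only one of the 33 genes to miss 2-fold there. IRF8, a factor best known from myeloid and dendritic cells, was listed in extravasated HMPOS alone, at 1.51 FPKM against 0.448 FPKM in parental cells.

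PARP9, PARP14 and PARP12 are ADP-ribosyltransferases, and DTX3L is the ubiquitin ligase that works as a complex with PARP9. PARP9, DTX3L and PARP14 lie together on chromosome 33 between 25640914 and 25801465, with PARP9 ending at 25676775 and DTX3L beginning at 25677075, and all were listed in the 3 tables. PARP9 was at 13.8 and 6.37 FPKM in extravasated and parental D17, at 3.76 and 2.54 FPKM in HMPOS and at 17.2 FPKM in POS. DTX3L was at 18.6 and 11.8 FPKM in D17, at 5.38 and 3.74 FPKM in HMPOS and at 26.0 FPKM in POS. The neighbors PARP9 and DTX3L had like ratios between the parental lines, with log2 values of -2.76 and -2.80, and in HMPOS, with 0.57 and 0.53. In D17 these were 1.11 and 0.66. PARP14 was at 15.3 and 5.61 FPKM in D17, at 2.80 and 1.56 FPKM in HMPOS and at 19.2 FPKM in POS, and had a larger ratio than either in all 3 comparisons. PARP12, which lies on chromosome 16, was at 15.5 and 8.47 FPKM in D17, at 2.18 FPKM in parental HMPOS and at 16.2 FPKM in POS. Its log2 ratio of -2.89 for HMPOS over POS was close to those of PARP9 and DTX3L. GBP5, a guanylate-binding protein that attacks the membranes of intracellular pathogens, was the only one of 3 looked up to be listed, at 4.91 FPKM after extravasation and 1.16 FPKM in the parental state of D17.

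Among the remaining genes, XAF1 and IFI6 had large ratios in D17. XAF1 antagonizes an inhibitor of apoptosis, and was at 11.6 FPKM after extravasation and 0.462 FPKM in the parental state of D17, the largest ratio of the set at 25.0-fold and the ninth highest of the 4404 ratios of that table. IFI6, a small membrane protein, was at 65.5 and 6.17 FPKM in D17, a 10.6-fold difference. In HMPOS it was at 20.2 and 5.15 FPKM, and in POS at 156 FPKM. IFI6 thus had similar levels in the parental D17 and HMPOS cells, although most of these genes were much lower in HMPOS.

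IFI35 was at 30.8 and 15.1 FPKM in D17, at 6.61 and 1.70 FPKM in HMPOS and at 99.7 FPKM in POS. With ISG15 and IFI6, it had the largest ratios of the set in HMPOS, between 3.88-fold and 3.93-fold, and IFI35 and MX1 were the listed genes with a larger ratio in HMPOS than in D17. RNF213, a very large ubiquitin ligase, was at 23.6 and 12.6 FPKM in D17, at 3.07 and 1.71 FPKM in HMPOS and at 46.0 FPKM in POS. IFI44 and IFI44L share a single span in the tables (chromosome 6, 68364493 to 68400785). IFI44 was at 219.9 and 93.0 FPKM in D17, at 0.929 FPKM in parental HMPOS and at 142 FPKM in POS, and IFI44L at 38.9 and 10.2 FPKM, 0.120 FPKM and 36.1 FPKM. TRIM21, an antibody receptor of the cytosol, was low throughout, at 4.98 and 3.62 FPKM in D17, 0.832 FPKM in parental HMPOS and 4.92 FPKM in POS.

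IFI30 stood apart from the others. It encodes a lysosomal thiol reductase that prepares antigens for presentation, and it was at 72.8 and 49.5 FPKM in extravasated and parental D17 and at 128 and 87.3 FPKM in HMPOS. It was the most abundant of the 15 genes listed for HMPOS and, of the 14 listed for both lines, it and UBE2L6 alone were higher in parental HMPOS than in parental D17. The ratio was 1.47-fold in each line. IFI30 was not listed for HMPOS against POS.

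A total of 14 interferon-stimulated genes were listed for extravasation in both D17 and HMPOS, comparisons that share no library. All 14 had the same direction in the lines, higher in the group named meta, as had 62.2% of the 614 symbols listed for both. Under the opposite reading of the names all 14 would be lower in the extravasated cells of each line. Above 2-fold in both lines were 6 of the 14, against 13.0% of the 614, and these were MX1, OAS2, OAS3, ISG15, IFI6 and IFI35. With a pseudocount of 1 FPKM only ISG15 and IFI6 stayed above 2-fold in both, since the log2 ratios of MX1, OAS2 and OAS3 in HMPOS became 0.89, 0.76 and 0.64 and that of IFI35 in D17 became 0.98. The ratio was larger in D17 for 12 of the 14. The difference between the lines was not tested, since there are no values per library. Across the 14 genes, the ratios in the lines had a Pearson's r of 0.59 and a Spearman's rho of 0.44, as a description of genes that are not independent of each other.

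In both HMPOS groups these genes were far below POS. For the 13 genes listed both for HMPOS extravasation and against POS, parental HMPOS had a median of 1.77% of the FPKM in POS, and extravasated HMPOS had a median of 6.63%. MX1 was lowest in each, at 0.128% and 0.356%, and UBE2L6 was highest, at 27.9% and 36.8%. All 13 were still below POS in extravasated HMPOS, and 11 of the 14 genes listed for both lines were lower in extravasated HMPOS than in parental D17, with IFI6, IFI30 and UBE2L6 the exceptions. The extravasated HMPOS and the POS values come from tables that were normalized separately. For the 13 genes, the HMPOS parental value differed between those tables by at most 0.00216 on the log2 scale.

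**Figure D3:**
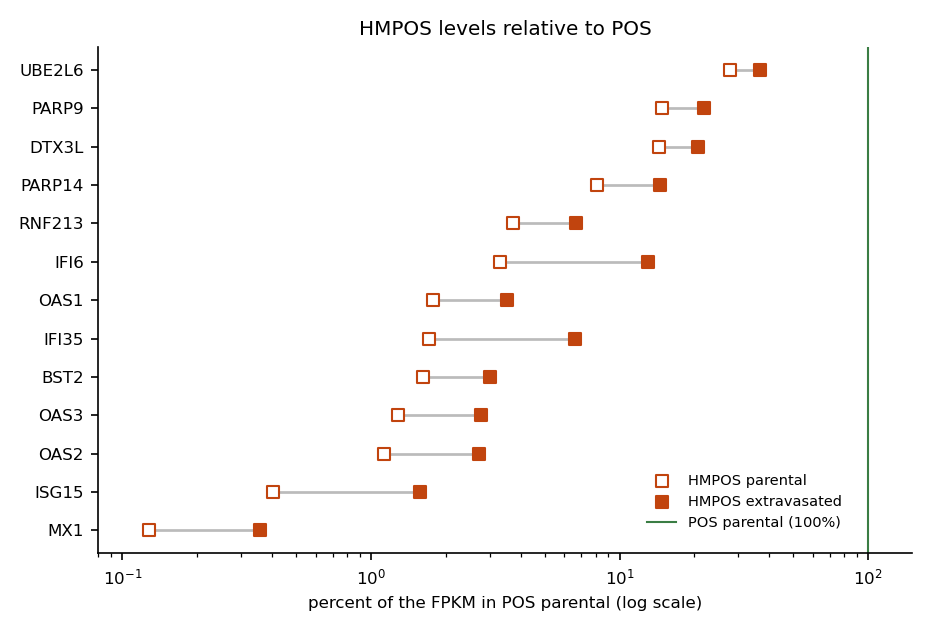
FPKM in HMPOS parental (open squares) and HMPOS extravasated cells (filled squares) as a percentage of the FPKM in POS parental cells (green line at 100%), on a log scale, for the 13 genes listed in both HMPOS tables. Gray bars join the HMPOS groups, and the filled squares run from 0.356% for MX1 to 36.8% for UBE2L6.

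The genes that separated POS from HMPOS most were not always those that separated the D17 groups most. Across the 31 genes listed for both, the log2 ratio of extravasated over parental D17 and that of POS over HMPOS had a Pearson's r of 0.40 and a Spearman's rho of 0.61. These comparisons share no library, but the genes share their annotation and their pathway, so the values are a description across genes. OASL and IFI6 had log2 ratios of 4.10 and 3.41 in D17, near the top of the set, and of -3.44 and -4.92 for HMPOS over POS, where the median was -4.92. The -3.44 is that of the kept OASL row, and the other row had -1.01. MX1 had the reverse, with 1.32 in D17 and -9.61 for HMPOS over POS. MX1 was at 217 FPKM in parental D17, and OASL and IFI6 were there at 2.24 and 6.17 FPKM. Whether the ratio of a gene goes with its parental level was not tested.

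**Figure D4:**
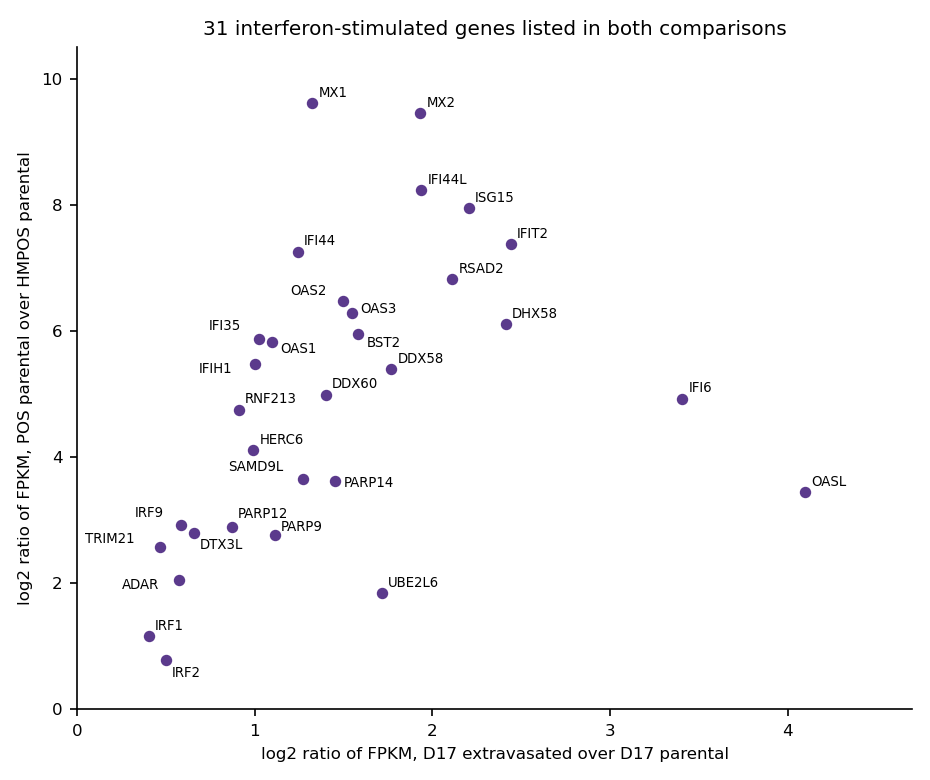
Log2 ratio of FPKM in D17 extravasated over D17 parental cells (x axis) against POS parental over HMPOS parental cells (y axis) for the 31 interferon-stimulated genes listed in both comparisons, each point a gene. All points are above 0 on both axes, with IRF2 and IRF1 at the lower left, MX1 at the top and OASL at the far right.

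Other genes of the pathway were read from a list of 92 symbols. Of the ligands, only IFNE, an epithelial type I interferon, was listed, at 0 FPKM in HMPOS against 0.801 FPKM in POS. Of the receptors, only IFNLR1 was listed, at 1.50 FPKM in HMPOS against 2.15 FPKM in POS. No ligand or receptor was listed for either extravasation comparison.

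STAT3, a transcription factor downstream of many cytokines, was at 66.5 and 47.6 FPKM in extravasated and parental D17, and at 42.6 FPKM in HMPOS against 84.1 FPKM in POS. The kinase genes moved little and in opposite directions, with JAK1 at 74.5 FPKM in HMPOS against 112 FPKM in POS and JAK2 at 20.3 and 16.4 FPKM. STAT2 and TYK2 were in no table.

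Of the 92 genes, 28 were listed for D17, with 24 higher in extravasated cells (11 by more than 2-fold) and 4 lower (0 by more than 2-fold). Of all genes listed for D17, 54.2% were higher at any fold and 18.3% by more than 2-fold. The 4 lower genes were TBK1, TRAF3 and TANK, which relay the signal of the sensors, and PIAS4, a brake on STAT signaling, with log2 ratios of -0.34, -0.42, -0.58 and -0.45. The median log2 ratio of the 28 was 0.75, below the 1.40 of the 37 interferon-stimulated genes. TRIM22 had the largest, at 3.39 FPKM after extravasation and 0.130 FPKM in the parental state, a 26.0-fold difference. GBP6 followed at 5.01 and 0.900 FPKM, and SAMHD1, which destroys the nucleotides that viruses need, at 48.8 and 15.3 FPKM. The other 8 above 2-fold were TNFSF10, TLR4, TRIM34, BATF2, LGALS9, LGALS3BP, C19orf66 and TLR3, between 1.00 and 1.40 on the log2 scale, with TLR3 almost exactly at 2-fold.

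For HMPOS extravasation 6 of the 92 were listed, 5 higher and 1 lower. Of all genes listed there, 67.0% were higher at any fold and 20.5% by more than 2-fold, and 6 genes are few to set against these shares. LY6E was at 5.68 FPKM after extravasation and 0.595 FPKM in the parental state, a larger ratio than that of any of the 15 interferon-stimulated genes. LGALS9 and TNFSF10 were also above 2-fold, at 1.28 and 0.3796 FPKM and at 3.88 and 1.68 FPKM. PIAS1 was the lower gene, with a log2 ratio of -0.40.

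Against POS, 35 of the 92 were listed, with 32 lower in HMPOS (24 by more than 2-fold) and 3 higher (0 by more than 2-fold). Of all genes listed for that comparison, 52.3% were lower at any fold and 19.1% by more than 2-fold. The 3 higher genes were JAK2, PTPN2 and WARS, with log2 ratios of 0.31, 0.58 and 0.31. LGALS9 had the lowest ratio, at 0.379 FPKM in HMPOS against 36.6 FPKM in POS, and TRIM22 was listed at 0 in HMPOS and 1.22 FPKM in POS. MB21D1, the DNA sensor cGAS, was at 0.262 and 4.49 FPKM, TLR3 at 6.10 and 32.8 FPKM and the adaptor MYD88 at 17.8 and 65.1 FPKM. Log2 ratios of further genes that were lower by more than 2-fold were -5.40 for GBP6, -3.99 for TNFSF10, -3.89 for LY6E, -3.79 for TDRD7, -3.67 for HELZ2, -2.78 for C19orf66, -2.52 for GCH1, -2.47 for NLRC5, -2.20 for PML, -2.13 for LGALS3BP and -2.12 for CD274. TRIM34, ZC3HAV1, TRIM14, SP110, BATF2 and PHF11 lay between -1.99 and -1.26.

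**Figure D5:**
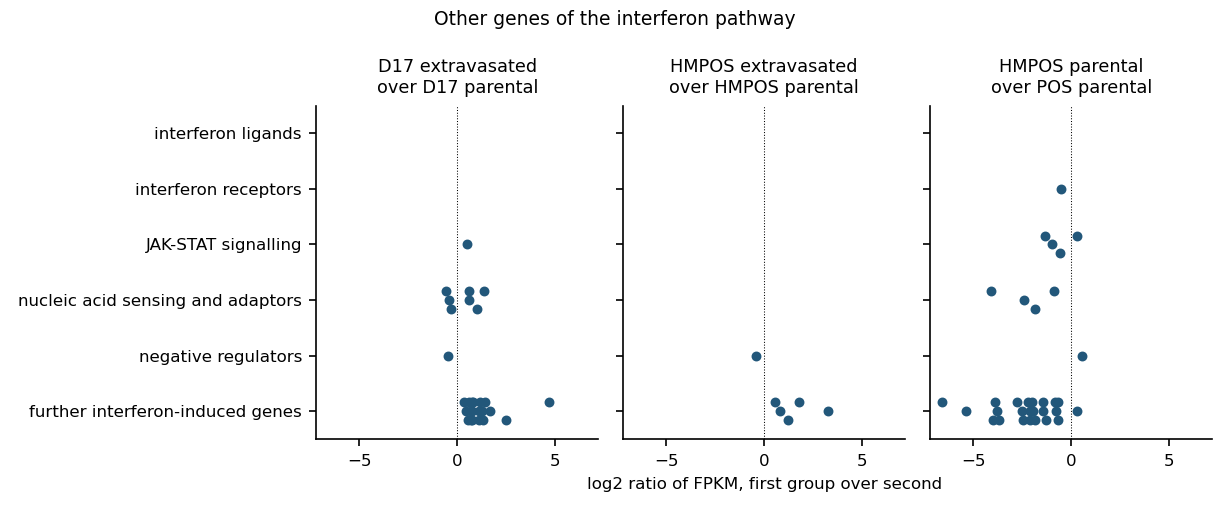
Log2 ratios of FPKM, first group over second, of the other interferon pathway genes by class (y axis) in the 3 comparisons, each point a listed gene. Genes listed at 0 in a group have no ratio and are not drawn, and points are spread vertically for legibility. Induced genes lie to the right of 0 in the extravasation comparisons and, except WARS, to the left of 0 for HMPOS over POS.

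Of 9 markers of the osteoblast lineage, 8 were listed in at least 1 table, all but RUNX2. In D17, 4 were listed and all were higher in extravasated cells, as were 4 of the 5 listed for HMPOS, with IBSP the exception. Of all listed genes, 54.2% were higher in D17 and 67.0% in HMPOS. Against POS, 4 of the 5 listed were lower in HMPOS, with SP7 the exception, and 52.3% of all listed genes were lower. These marker counts are too small to set apart from such shares. SPARC and COL1A1 were listed in all 3 comparisons, with log2 ratios of 1.21 and 0.82 in D17, 0.71 and 0.42 in HMPOS and -1.32 and -1.49 for HMPOS over POS. Larger ratios were those of BGLAP and SPP1 for HMPOS over POS, at -4.63 and -2.99, of SPP1 in D17, at 2.76, and of IBSP in HMPOS, at -2.26, so that some markers differed about as much as the interferon-stimulated genes. The lowest levels of SPARC and COL1A1 were 187 FPKM, in parental D17, and 75.9 FPKM, in parental HMPOS. Of 8 leukocyte and macrophage markers 0 were listed in any table, and of 6 endothelial markers only KDR was, with 0.146 FPKM in HMPOS against 1.73 FPKM in POS. The part of these differences in those of the interferon-stimulated genes was not tested.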

How the data were processed

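RNA sequencing covered 15 libraries, 3 in each of 5 groups. The authors deposited 1 table per comparison with the FPKM of each group, per the file headers in the layout of Cuffdiff. The submitters' processing notes name Trimmomatic 0.38, TopHat2, Cufflinks, Cuffdiff and the build CanFam3.1, whereas the article describes STAR, voom and limma. Further columns (log2 fold change, test statistic, p-value, q-value) hold the authors' own comparisons and were not used. The tables list called genes alone, and 0 columns of single samples were left unused.

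Genes were matched by exact symbol. Log2 ratios were recomputed without a pseudocount, and counts used a fold above 2. Where a symbol had 2 rows, the identifier also present in another table was kept. The set and the other lists were chosen with earlier results of these data known. The named genes were every listed gene of the set and, of the other pathway genes, those above 2-fold in any table and every listed ligand, receptor, kinase or STAT. The values of 1 of these pathway genes are not reported here. The window of 250 kb for neighboring genes was chosen after the values were seen. Counting was tested on simulated data. The software was matplotlib 3.10.9, scipy 1.17.1, pandas 2.3.3 and numpy 2.4.6 on Python 3.11.15.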

Additional observations from a re-analysis of the deposited data

How the results depend on the processing

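Without values per library, no fit that leaves out a replicate was run. No paired analysis was possible because each table holds 1 value per group. Depth is unknown, which limits genes below 1 FPKM most. A planned search for promoter motifs was not run. At any fold, the interferon-stimulated genes higher in extravasated HMPOS numbered 15. Among the other pathway genes the counts at any fold were 24 higher and 4 lower in D17, 5 higher and 1 lower in HMPOS, and 3 higher in HMPOS than in POS. Above 4-fold, 10 interferon-stimulated genes were higher in D17 and 0 in HMPOS, with 2 and 1 of the other pathway genes. With a pseudocount of 1 FPKM in both groups, 3 interferon-stimulated genes and 1 other pathway gene were higher in HMPOS above 2-fold. Centred on the median of the listed genes, 4 interferon-stimulated genes were above 2-fold in HMPOS and 4 other pathway genes in D17. The listed genes were called ones, so their median is no neutral reference.

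The median log2 ratio with a pseudocount of 1, with one of 0.1 and after centring was 1.32, 1.40 and 1.01 in D17, 0.66, 0.97 and 0.41 in HMPOS and -3.84, -4.67 and -4.62 for HMPOS over POS. The ratios of 4 genes changed sign after centring in HMPOS, to -0.18 for UBE2L6, -0.016 for PARP9, -0.059 for DTX3L and -0.031 for IFI30. No other ratio of an interferon-stimulated gene changed sign under these alternatives. Keeping genes that reached 1 FPKM in either group, and using the second OASL row (added after seeing the data), left each count within 1.5 times of its main value.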

Other observations

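D17 and POS were not compared in a deposited table, and their values come from tables normalized separately, so they are given side by side without a test. Of the 31 interferon-stimulated genes listed for both, 22 had a higher FPKM in POS than in extravasated D17 cells and 28 a higher FPKM than in parental D17 cells. DDX60, RSAD2 and IRF1 were lower in POS than in either D17 group. DDX60 was at 1.64 FPKM in POS, against 54.9 and 20.8 FPKM in extravasated and parental D17, and RSAD2 was at 13.8 FPKM against 139.7 and 32.3 FPKM. OAS2 was at almost the same level in POS, 86.2 FPKM, as in parental D17, 85.3 FPKM.

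Listed genes outside the interferon lists that lie within 250 kb of a listed interferon-stimulated gene were also read. For HMPOS extravasation there were 19, and 19 of these were higher in the group read as extravasated (median log2 ratio 0.73), against 67.0% of all listed genes. In D17, 55 of 82 such neighbors were higher (67.1%, against 54.2% of all listed genes), and for HMPOS over POS 56 of 86 were lower (65.1%, against 52.3%). Higher by more than 2-fold were 4 of the 19 in HMPOS (21.1%, near the 20.5% of all listed genes). In D17 these were 21 of the 82 (25.6%, against 18.3%). For HMPOS over POS, 23 of the 86 were lower by more than 2-fold (26.7%, against 19.1%). SERPING1, the inhibitor of complement C1 and a neighbor of UBE2L6 on chromosome 18, had the largest of the 19 ratios in HMPOS, at 6.50 FPKM after extravasation and 1.46 FPKM in the parental state, and was at 21.9 and 6.57 FPKM in D17. PARP15, beside PARP14 on chromosome 33, had 2.16 and 1.41 FPKM in HMPOS, in the same order, and 1.84 and 0.808 FPKM in D17. Whether neighbors respond to interferon themselves was not tested.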
